A study of Homo sapiens with 4 samples.

Results

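The replication-dependent histone genes are the genes of the HIST1, HIST2, HIST3 and HIST4 clusters, which supply the histones that package newly copied DNA. They were selected by gene symbol from the deposited expression table, as HIST followed by the cluster number and H1, H2A, H2B, H3 or H4, leaving out names that end in PS or PS with a number. The rule took 76 of the 57815 genes in the table. They comprised 6 H1, 17 H2A, 23 H2B, 15 H3 and 15 H4 genes, of which 55 lay in HIST1, 16 in HIST2, 4 in HIST3 and 1 in HIST4. RNA-Seq compared MDA-MB-231, a human triple-negative breast cancer cell line, with LM2-4175, called LM2 in the table, a line isolated from MDA-MB-231 that metastasizes to the lung. Both lines were grown in the same serum-containing medium and neither was treated. There were 2 libraries per line and 4 in all, but the authors had combined them in 1 value per gene and line, so no difference below has a replicate check. The sources do not say whether the libraries came from separate cultures, and each group is a single cell line.

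H1 is the linker histone that binds DNA between nucleosomes, and H2A, H2B, H3 and H4 form the core around which DNA is wound. Replication-dependent histone genes have no introns in their main transcripts and are switched on in S phase through NPAT, a coactivator that gathers at the clusters. Their mRNAs end in a conserved stem-loop, bound by the stem-loop binding protein SLBP, in place of the poly(A) tail that other mRNAs carry. Some of the genes are also known to give longer, polyadenylated transcripts. The paper names a TruSeq kit for the libraries, but the sources used here do not state whether polyadenylated RNA was selected before sequencing. The part of such a selection in the levels below was not tested.

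The stem-loop defines how these mRNAs end and is shown here for the 10 members called lower in LM2 (the rule for a call is given below), with HIST1H3B for the H3 type. GENCODE 44 on GRCh37 held 72 of the 76 members, and the stem-loop consensus of 16 bases was searched within 150 bases after each stop codon. All 67 protein-coding members matched held it, against 2 of 20108 other protein-coding genes (0.00995%). It began 25 to 70 bases after the stop codon, with a median of 38 bases. The sequences run 5′ to 3′ on the strand of the gene, with 5 bases on each side, and the capitals mark the stem-loop.
HIST1H2BK, chr6:27114140-27114165, minus strand: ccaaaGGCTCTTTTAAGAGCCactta
HIST1H2BC, chr6:26123695-26123720, minus strand: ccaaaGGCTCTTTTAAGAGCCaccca
HIST1H2BD, chr6:26158810-26158835, plus strand: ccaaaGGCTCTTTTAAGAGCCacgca
HIST1H2BJ, chr6:27100095-27100120, minus strand: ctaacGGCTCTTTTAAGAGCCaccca
HIST1H2BO, chr6:27861643-27861668, plus strand: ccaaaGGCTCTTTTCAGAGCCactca
HIST2H2BE, chr1:149857733-149857758, minus strand: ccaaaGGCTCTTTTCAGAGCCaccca
HIST1H1C, chr6:26055967-26055992, minus strand: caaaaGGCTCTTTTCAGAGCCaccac
HIST1H2AC, chr6:26124892-26124917, plus strand: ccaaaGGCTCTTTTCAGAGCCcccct
HIST1H2AG, chr6:27101289-27101314, plus strand: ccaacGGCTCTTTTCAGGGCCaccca
HIST1H3B, chr6:26031820-26031845, minus strand: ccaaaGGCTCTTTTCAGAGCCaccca
HIST1H4H, chr6:26285354-26285379, minus strand: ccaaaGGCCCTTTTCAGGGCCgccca
The most frequent stem-loop, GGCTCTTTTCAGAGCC, was held by 39 members of the H1, H2A, H2B and H3 types and by no H4 gene. The form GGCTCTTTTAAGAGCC was held by 9 members, among them the 4 H2B genes HIST1H2BK, HIST1H2BC, HIST1H2BD and HIST1H2BJ. The H4 genes carried other forms, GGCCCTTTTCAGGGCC in 9 genes and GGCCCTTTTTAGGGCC in 4.

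Summed over the members, histone gene expression was lower in LM2, and in absolute level HIST1H2BK and HIST1H1C differed most. FPKM counts the fragments of a gene per length of its transcript and per mapped fragment, so that genes of different length can be compared. The FPKM of the 76 members summed to 390.9 in MDA-MB-231 against 67.15 in LM2, a 5.82-fold difference. They held 0.0618% of the FPKM of all genes in MDA-MB-231, and in LM2 they held 0.0112%. MDA-MB-231 had 19 members with at least 1 FPKM and 6 with at least 5 FPKM, where LM2 had 8 and 3.

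A gene was called where FPKM + 1 differed by at least 1.5-fold and the lower and upper bounds that the authors give for each line did not overlap. The call was made for genes with a status of OK and a mean FPKM of at least 0.5. It takes 1 value per line and is therefore no test of the lines. Of the 76 members, 10 were called lower in LM2 and none was called higher. Among all 13911 genes tested, 4.61% were called lower and 4.67% higher, 9.27% together. By the fold alone, 13 members were lower and none higher, beside 11.8% and 10.3% of all genes (22.1% together). A further 3 members were lower by more than 1.5-fold with overlapping bounds, 9 differed by less, 28 were above 0 but under the filter, and 26 were listed at 0 in both lines. A gene that passes the filter through its level in MDA-MB-231 alone is bound to be lower in LM2, so the counts without the filter were also taken. Of the 50 members above 0 in either line, 42 were lower and 8 higher in LM2, while 49.0% of the 26635 genes above 0 in either line were lower. Of the 22 members tested, all were lower as deposited, 21 when scaled to the same sum and 20 when centred, while 54.5% of all genes tested were lower as deposited. The median log2 ratio of FPKM + 1 was −0.82 over the 22 members tested, against −0.044 over all genes tested. Without the filter it was −0.015 over all 76 members, against 0.0 over all genes with a status of OK.

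**Figure D1:**
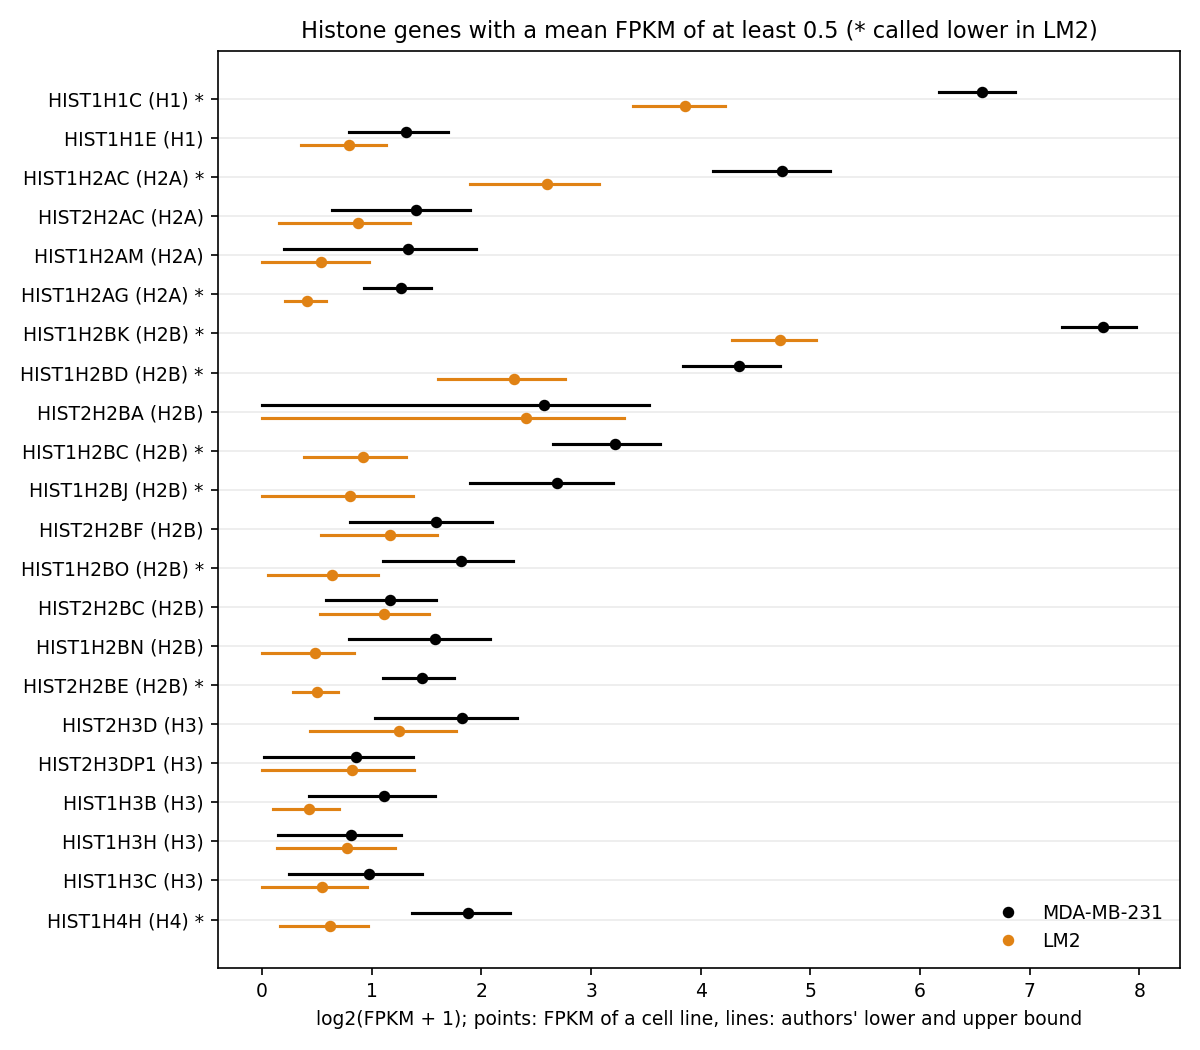
FPKM of the 22 histone genes with a mean of at least 0.5, on a log2(FPKM + 1) axis, by histone type and then by mean. Points are the value of a cell line (black MDA-MB-231, orange LM2) and lines run from the authors' lower to upper bound. The bounds are apart for the 10 genes marked with an asterisk, and HIST1H2BK and HIST1H1C lie farthest to the right in both lines.

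The linker histone genes were represented almost wholly by HIST1H1C, which encodes H1.2. HIST1H1C (ENSG00000187837, chr6:26055968-26056698, a single exon on the minus strand) was listed at 93.6 FPKM in the parental line MDA-MB-231 (71.4 to 115.9, the authors' bounds) against 13.5 FPKM in LM2 (9.42 to 17.6). The upper bound in LM2 lay well under the lower bound in MDA-MB-231. The level was 6.92-fold lower in LM2, and 4.04- to 12.3-fold lower between the nearest and the farthest bounds. HIST1H1E, which encodes H1.4, was listed at 1.48 FPKM (0.729 to 2.23) and 0.735 FPKM (0.282 to 1.19), with bounds that overlap. The testis-specific HIST1H1T was at 0.0446 FPKM in MDA-MB-231 while LM2 was listed at 0, HIST1H1B was at 0.0349 FPKM and 0, and HIST1H1A and HIST1H1D were listed at 0 in both. The sum over the H1 genes was 95.18 and 14.27 FPKM.

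The H2A genes were led by HIST1H2AC, which encodes H2A type 1-C. HIST1H2AC (chr6:26124373-26139344, plus strand) was listed at 25.8 FPKM (16.3 to 35.3) against 5.07 FPKM (2.71 to 7.43) in LM2. It was 5.09-fold lower in LM2, and 2.20- to 13.0-fold between the bounds. HIST1H2AG (chr6:27100822-27101314, plus strand) was also called lower, at 1.40 FPKM (0.902 to 1.91) and 0.327 FPKM (0.154 to 0.5). The bounds of HIST1H2AG were apart, but its level in LM2 was under 1 FPKM. HIST2H2AC was listed at 1.64 and 0.831 FPKM, and HIST1H2AM at 1.51 and 0.454 FPKM, both with overlapping bounds. Of the other H2A genes, 8 were above 0 but under the filter, at 0.840 FPKM or less, and 7 of these were lower in LM2. The highest of them was HIST1H2AI, at 0.840 FPKM (0.221 to 1.46) and 0.123 FPKM (0 to 0.289), with bounds that overlap.

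The H2B genes held the highest member, 10 of the 22 members tested and 6 of the 10 calls. HIST1H2BK (ENSG00000197903, chr6:27114140-27114634, minus strand) was listed at 203.2 FPKM (156.5 to 249.8) in MDA-MB-231, whereas LM2 had 25.3 FPKM (18.5 to 32.2). The decrease was 8.02-fold, and 4.86- to 13.5-fold between the bounds. By the log2 ratio, it ranked 32 among the decreases of all 13911 genes tested, and HIST1H1C ranked 43. HIST1H2BK alone held 52.0% of the members' FPKM in MDA-MB-231, and its share in LM2 was 37.7%. Without HIST1H2BK and HIST1H1C, the members summed to 94.13 FPKM in MDA-MB-231 against 28.28 FPKM in LM2, so that the remaining members were 3.33-fold lower.

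HIST1H2BD (chr6:26158350-26171577, plus strand) was listed at 19.4 FPKM (13.3 to 25.5) in the parental line and 3.91 FPKM (2.04 to 5.78) in LM2, a 4.96-fold decrease. HIST1H2BC (chr6:26086545-26124154, minus strand) was listed at 8.33 FPKM (5.27 to 11.4) and 0.893 FPKM (0.303 to 1.48). It had the largest fold of the called members, 9.33-fold, and 3.55- to 37.6-fold between the bounds. In GENCODE 44, 30.9% of its exon bases overlap other genes, among them HFE, an iron homeostasis gene listed at 17.1 and 11.6 FPKM and not called. The deposited locus of HIST1H2BC is only 9054 bases long, shorter than this gene model, so the overlap need not apply to its FPKM. HIST1H2BJ was listed at 5.45 FPKM (2.73 to 8.18) and 0.746 FPKM (0 to 1.60). The last pair of calls were at low levels in both lines. HIST1H2BO was listed at 2.52 and 0.560 FPKM and HIST2H2BE at 1.76 and 0.418 FPKM. HIST1H2BN, at 1.98 FPKM (0.737 to 3.22) and 0.396 FPKM (0.00155 to 0.791), was 4.99-fold lower, with bounds that overlap by a narrow margin. The testis-specific HIST1H2BA was listed at 0 in both lines.

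Among the H2B pseudogenes, HIST2H2BA was listed at 4.93 and 4.32 FPKM, with lower bounds of 0 in both lines, and HIST2H2BC at 1.25 and 1.16 FPKM. Over the 5 members annotated as pseudogenes, FPKM summed to 6.98 and 6.235, a 1.12-fold difference. Of these 5, 3 were tested and none was called, and the other two were listed at 0 in both lines. The 67 protein-coding members summed to 383.8 and 60.75 FPKM.

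Of the 15 H3 genes, 5 were tested and none was called. HIST2H3D was listed at 2.53 FPKM (1.04 to 4.03) against 1.37 FPKM (0.351 to 2.40) in LM2, and HIST1H3B at 1.16 FPKM (0.346 to 1.98) and 0.347 FPKM (0.0730 to 0.621). The bounds overlapped for both genes. HIST1H3C was listed at 0.968 and 0.460 FPKM and HIST1H3H at 0.758 and 0.711 FPKM. HIST2H3DP1, a pseudogene, was listed at 0.805 and 0.762 FPKM. HIST1H3H and HIST2H3DP1 were lower in LM2 as deposited, and both were higher by the centred ratio. The testis-specific HIST3H3 was listed at 0 in both lines. The H3 genes together summed to 6.525 and 3.877 FPKM, a 1.68-fold difference.

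Among the H4 genes, HIST1H4H (chr6:26277837-26285866, minus strand) was the only one tested and was called lower. It was listed at 2.68 FPKM (1.57 to 3.79) against 0.536 FPKM (0.120 to 0.952) in LM2, a 5.00-fold decrease, and 13.3% of its exon bases overlap another gene model. HIST1H4C was at 0.559 and 0.154 FPKM, and HIST4H4 at 0.420 and 0.405 FPKM, which turns to slightly higher in LM2 when each line is scaled to the same sum. HIST1H4B was higher in LM2, at 0.314 FPKM (0.0289 to 0.599) and 0.371 FPKM (0 to 0.934), within its bounds. The H4 genes together summed to 4.528 and 1.736 FPKM, a 2.61-fold difference, but without HIST1H4H to 1.844 and 1.2 FPKM, a 1.54-fold difference. Nucleosomes hold equal numbers of each core histone. The H2B sum was 251.5 FPKM in MDA-MB-231 against 39.43 FPKM in LM2.

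**Figure D2:**
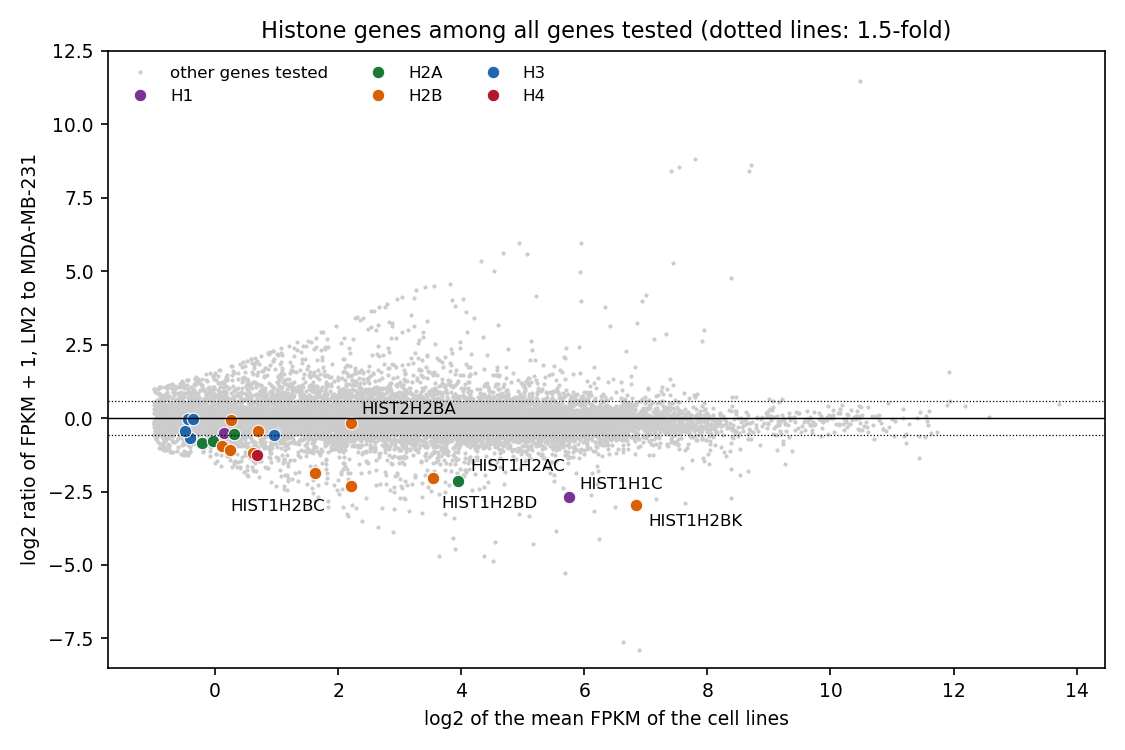
Log2 ratio of FPKM + 1 between LM2 and MDA-MB-231 (vertical) against the log2 of the mean FPKM (horizontal) for the 13911 genes tested, with histone genes coloured by type. The 4 called genes with a mean of at least 5 FPKM, HIST1H2BK, HIST1H1C, HIST1H2AC and HIST1H2BD, lie below −2 on the vertical axis.

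Many histone genes have near-identical copies, so reads can be shared between them. Words of 75 bases from the transcripts of each of the 72 matched members were compared with those of the other matched members. Genes outside the matched members were not searched. The called members shared at most 5.94% of their words. Of the 14 members that shared over 50%, only 3 were tested, none of them was called, and 7 were listed at 0 in both lines. These include HIST2H4A with HIST2H4B, HIST2H3A with HIST2H3C, and HIST2H2AA3 with HIST2H2AA4, which were all listed at 0, and their level is uncertain. HIST1H2AM is 1 of the 14, at 65.9%, but it shares these words with HIST1H3J, whose annotated exons overlap its own. Leaving out the 14 and the pseudogenes, 55 protein-coding members summed to 378.1 and 58.48 FPKM, a 6.47-fold difference.

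The clusters differed in level. The 55 members in HIST1 on chromosome 6 summed to 375.2 FPKM in MDA-MB-231 against 56.35 FPKM in LM2, a 6.66-fold difference. Of these 55, 15 were tested and 9 called lower. The 16 members of HIST2 on chromosome 1 summed to 15.28 and 10.4 FPKM, a 1.47-fold difference, and of 7 tested only HIST2H2BE was called. Of these sums, 6.98 and 6.235 FPKM came from the pseudogenes HIST2H2BA, HIST2H2BC and HIST2H3DP1. HIST2H2BA (chr1:120906101-120906358) and HIST2H3DP1 (chr1:120904675-120905090) lie outside chr1:149754245-149859515, which holds the other HIST2 members with a position. Without the members whose exons overlap other genes, the 9 left in HIST2 summed to 6.086 and 2.747 FPKM, a 2.22-fold difference. The 4 members of HIST3 were listed at 0 in both lines. Between HIST1 and HIST2, neither the difference in fold nor in count was tested.

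Along chromosome 6, the HIST1 members with a position fell into 3 stretches separated by gaps of more than 400 kb. The first, at chr6:25723625-26285866, held 31 members and summed to 155.1 and 26.52 FPKM, with 5 of 8 tested members called. The middle stretch, at chr6:27093676-27115341, held 5 members and summed to 210.8 and 26.8 FPKM, with all 3 tested members called. The last, at chr6:27775257-27861669, held 16 members and summed to 9.317 and 2.987 FPKM, with 1 of 4 called. The first and middle stretches therefore held nearly all of the FPKM, through HIST1H1C and HIST1H2BK.

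Genes of other kinds lie between the histone genes. Across the 2138 kb from the first to the last HIST1 member, 18 other genes were tested. Of these, 13 were lower and 5 higher in LM2, with a median log2 ratio of −0.265, and 1 was called lower. Among all genes tested, 54.5% were lower and 4.61% were called lower, so a single call among 18 genes is near the background. The butyrophilin gene BTN3A1 was listed at 10.0 and 6.48 FPKM and HMGN4, a nucleosome-binding protein, at 108.2 and 93.7 FPKM, neither called. The called neighbour was the non-coding RNA RP1-86C11.7, at 1.90 FPKM (0.890 to 2.92) and 0.224 FPKM (0 to 0.496), which lies 2676 bases from HIST1H2BJ. In the HIST2 stretch, the 1 other gene tested was BOLA1, which overlaps HIST2H2AB and was called lower, at 3.31 FPKM (2.01 to 4.60) and 0.325 FPKM (0.0425 to 0.608).

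**Figure D3:**
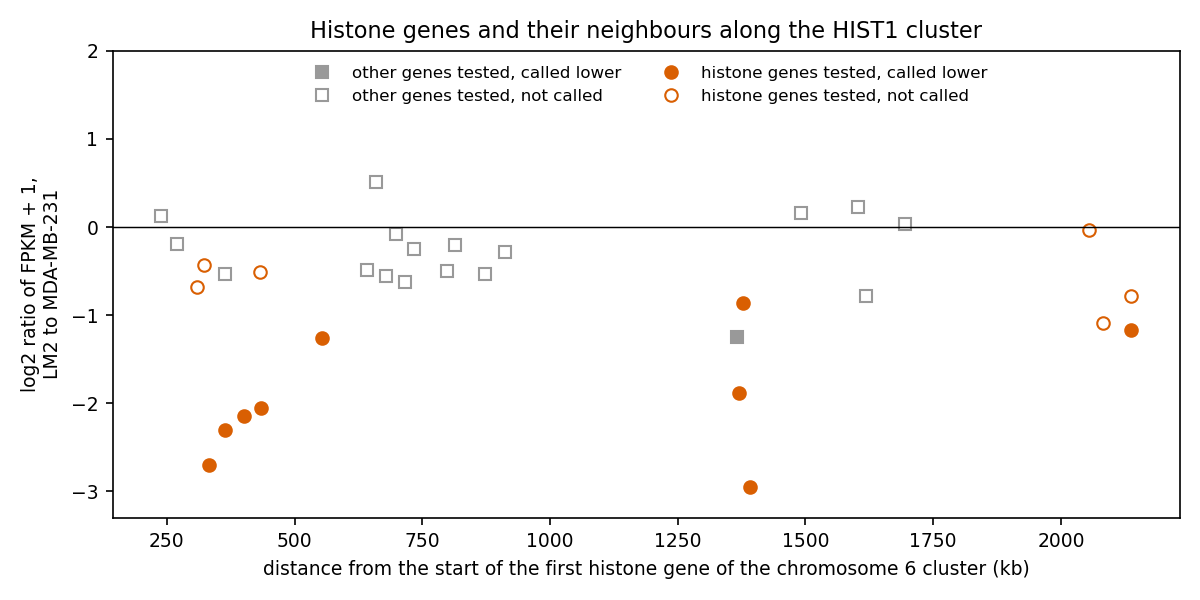
Log2 ratio of FPKM + 1 between LM2 and MDA-MB-231 for the tested genes of the chromosome 6 cluster, against the distance in kb from its first histone gene. Circles are histone genes and squares other genes, filled where called lower. The filled circles lie in all 3 stretches and the other genes, 1 excepted, stay above −0.8.

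Histone genes often stand head to head, so that an H2A and an H2B gene share one promoter region. There were 12 such pairs with 130 to 289 bases between their starts. In 2 pairs both genes were called lower, in 3 pairs 1 gene was called, in 7 pairs none was, and in 3 of these 7 both genes were listed at 0. Only tested genes could be called. Also among the 7 were HIST1H2AI with HIST1H2BL and HIST1H2AJ with HIST1H2BM, all above 0 but under the filter. The H2B partners HIST2H2BC and HIST2H2BD are pseudogenes. HIST1H2AC and HIST1H2BC, whose starts are 246 bases apart, were listed at 25.8 and 8.33 FPKM in MDA-MB-231, and LM2 had 5.07 and 0.893 FPKM. HIST1H2BJ and HIST1H2AG, 248 bases apart, were called together as well. HIST1H2BK at 203.2 FPKM stood 251 bases from HIST1H2AH, which was listed at 0.633 FPKM in MDA-MB-231 against 0.340 FPKM in LM2. HIST2H2AC and HIST2H2BE, 236 bases apart, were closer to each other, at 1.64 and 1.76 FPKM in MDA-MB-231.

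The promoters of 4 called genes are shown, since these regions hold the elements that histone types share. They are the 200 bases before the start of the annotated transcript that ends nearest to the stem-loop. For HIST1H2AC and HIST1H4H this start lies inside the gene bounds given above, so part of the window does as well. They run 5′ to 3′ on the strand of the gene in GRCh37. Capitals mark TATAAA (the TATA box), CCAAT (the CCAAT box), ATTTGCAT (the octamer bound by POU2F1) and AAACACA (the H1 box), on either strand, merged where they overlap.
HIST1H2BK, chr6:27114635-27114834, minus strand: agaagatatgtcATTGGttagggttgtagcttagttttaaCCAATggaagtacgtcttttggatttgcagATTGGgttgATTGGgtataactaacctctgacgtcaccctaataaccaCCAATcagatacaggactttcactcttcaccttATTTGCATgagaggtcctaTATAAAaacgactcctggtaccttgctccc
HIST1H1C, chr6:26056699-26056898, minus strand: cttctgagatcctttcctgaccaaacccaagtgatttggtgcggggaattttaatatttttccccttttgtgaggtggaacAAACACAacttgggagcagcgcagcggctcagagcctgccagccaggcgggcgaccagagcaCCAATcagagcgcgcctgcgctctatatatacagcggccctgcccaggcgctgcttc
HIST1H2AC, chr6:26124200-26124399, plus strand: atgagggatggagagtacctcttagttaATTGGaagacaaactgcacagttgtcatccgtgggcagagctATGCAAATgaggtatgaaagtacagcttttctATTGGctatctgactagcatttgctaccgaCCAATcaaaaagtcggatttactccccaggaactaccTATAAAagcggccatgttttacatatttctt
HIST1H4H, chr6:26285763-26285962, minus strand: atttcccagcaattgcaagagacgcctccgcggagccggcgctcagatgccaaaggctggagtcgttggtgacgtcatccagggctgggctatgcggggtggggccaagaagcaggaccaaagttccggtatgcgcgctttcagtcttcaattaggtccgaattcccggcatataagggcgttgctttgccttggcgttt
The bases shown for HIST1H2AC overlap the 200 bases before HIST1H2BC, which is read in the other direction. The octamer stands just before the TATA box of HIST1H2BK, the H1 box stands before the CCAAT box of HIST1H1C, and HIST1H4H holds none of the 4 motifs in this window. TATAAA was found in 59.7% of the 67 protein-coding members and in 7.83% of all 20175 protein-coding promoters. For genes other than the members, the window was placed before the start of the main annotated transcript. CCAAT was found in 83.6% and 30.3%, and the octamer in 28.4% and 1.22%. Among the members, the octamer was found in 12 of 16 H2B and 7 of 17 H2A promoters and in none of the other types, and in 6 of the 10 called genes. AAACACA was found in all 6 H1 promoters and in no other member, against 2.82% of all promoters.

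Several called genes are annotated with transcripts that run past the stem-loop. In GENCODE 44, 18 members have a transcript that ends more than 100 bases beyond it, and 9 of these were tested and 6 called. They summed to 68.64 FPKM in MDA-MB-231 against 14.36 FPKM in LM2, a 4.78-fold difference. The 49 protein-coding members without such a transcript summed to 315.1 and 46.39 FPKM, a 6.79-fold difference, and 10 were tested and 4 called. HIST1H2BK, at 203.2 and 25.3 FPKM, and HIST1H2AG are among these 49, although their deposited loci are 8547 and 2239 bases long. The paper computed FPKM with an earlier GENCODE release, so the transcripts behind the FPKM may differ from those used for this grouping. In the deposited table the locus was longer than 1000 bases for 26 members, among them 8 of the 10 called. Only tested members could be called, and 13 of these 26 were tested, against 9 of the 50 with a shorter locus. The other two called genes were HIST1H1C, with a locus of 732 bases, and HIST1H2BO, with 467 bases. HIST1H2BK had a locus of 8547 bases that it shared with HIST1H4I. The 26 members with the longer locus summed to 280.4 FPKM in MDA-MB-231 and 45.32 FPKM in LM2, a 6.19-fold difference. The 50 with a shorter locus summed to 110.5 and 21.83 FPKM, a 5.06-fold difference. The order of the folds therefore depends on which grouping is used. The table gives 1 value per gene, so FPKM from stem-loop and from longer transcripts cannot be told apart.

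The genes around histone supply were then compared, starting with the histones that are made throughout the cell cycle. Of 12 replication-independent histone genes, 10 were tested, and 7 were lower and 3 higher in LM2, beside 54.5% lower among all genes tested. In this list 1 gene was called lower and none higher, with a median log2 ratio of −0.207. Beside the 4.61% of all genes called lower, a single call in lists of 10 to 20 genes is near the background, and this holds for the chaperone and S phase genes below as well. H2AFX, which encodes the H2A.X that is phosphorylated at DNA breaks, was listed at 110.6 FPKM (84.8 to 136.4) against 45.0 FPKM (34.5 to 55.5) in LM2. H2AFX is known to give both a stem-loop and a polyadenylated mRNA. The others included H2AFV at 215.3 and 112 FPKM, with overlapping bounds, and H3F3B, which encodes H3.3, at 474.7 and 464.8 FPKM. Among the 3 higher genes were H2AFZ at 461.4 and 524.8 FPKM and the linker histone gene H1F0 at 129.0 and 159.6 FPKM. These 12 genes summed to 1992 and 1831 FPKM, far above the replication-dependent genes in both lines. The list was chosen for mRNAs that carry poly(A) tails, which stem-loop mRNAs lack. The part of RNA selection in this gap was not tested, so it is no measure of relative expression.

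Of 15 genes for histone mRNA synthesis and processing, all were tested and none was called, and their median was −0.041. SLBP was listed at 92.1 FPKM (66.5 to 117.7) and 71.2 FPKM (51.3 to 91.2), and NPAT at 13.3 FPKM (7.11 to 19.4) and 11.1 FPKM (5.21 to 17.1). The largest difference was for CASP8AP2, a component of histone locus bodies, at 6.45 FPKM (4.35 to 8.56) and 10.6 FPKM (7.02 to 14.2), higher in LM2 with overlapping bounds. At an alternative threshold, the 1.5-fold change without bounds, CASP8AP2 was the single gene of this list past it.

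Of 17 histone chaperone genes, 16 were tested and RBBP7 was called lower, at 195.5 FPKM (135.9 to 255.1) and 81.9 FPKM (60.3 to 103.5). RBBP7 encodes a histone-binding subunit of several chromatin complexes. NASP, a chaperone of H1 and H3-H4, was at 177.9 and 151.8 FPKM, and the list's median was −0.18. Of 20 S phase genes, all were tested, 17 were lower and 3 higher, beside 54.5% lower among all genes tested, and 1 was called, with a median of −0.258. The called gene was UNG, a uracil-DNA glycosylase, at 62.5 FPKM (48.0 to 77.1) and 31.3 FPKM (23.8 to 38.7). PCNA, the clamp of replicative polymerases, was at 224.4 and 200.1 FPKM, and the thymidylate synthase TYMS at 136.6 and 73.1 FPKM with overlapping bounds. The shares of cells in S phase were not measured, so fewer cells with histone mRNA and less mRNA per cell cannot be told apart.

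**Figure D4:**
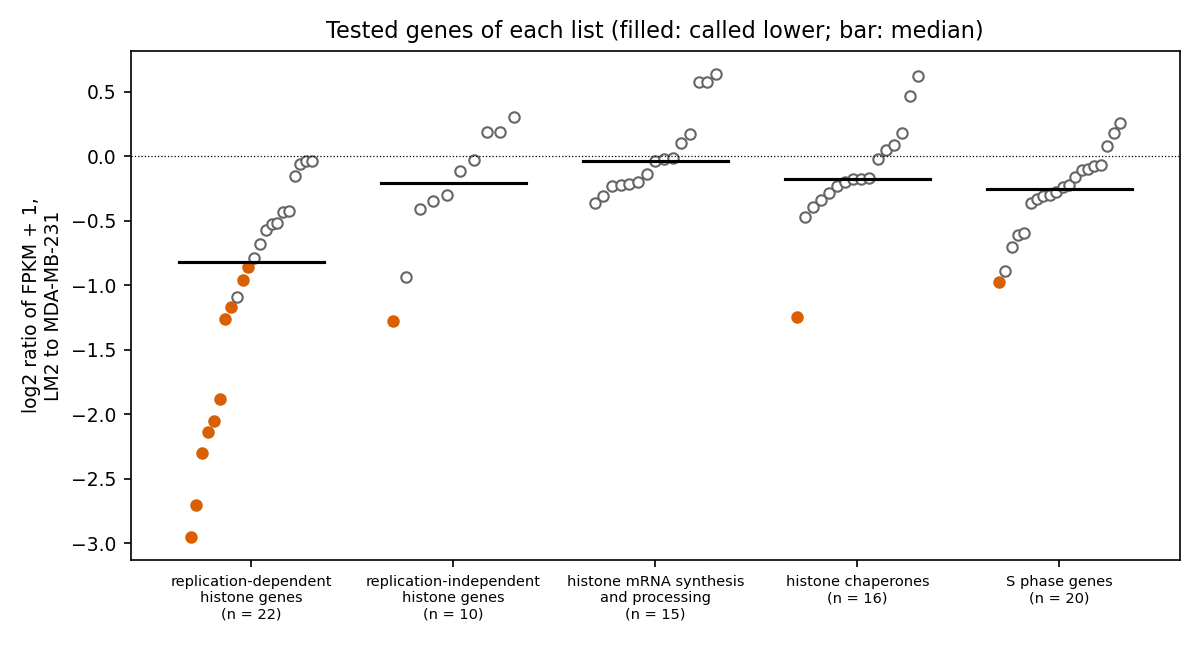
Log2 ratio of FPKM + 1 between LM2 and MDA-MB-231 for every tested gene of the replication-dependent histone genes and of 4 related lists, with genes sorted within a list, filled points for genes called lower and a bar at the median. The medians lie between −0.258 and −0.041 in the 4 related lists and at −0.82 in the replication-dependent genes, whose filter on level is described above.

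The labels were checked against known marks of the lines. ESR1 and PGR were near 0 in both lines, at 0.0331 FPKM or less. ERBB2 was checked with them and was not near 0 in either line. Its level was 34.95 FPKM in the parental line, whereas LM2 had 22.76 FPKM, with overlapping bounds and no call. The part of the check that rests on ERBB2 was therefore not met. VIM, a mesenchymal gene, was at 1355 FPKM in MDA-MB-231 against 1768 FPKM in LM2, and the epithelial genes KRT8, KRT18 and EPCAM were all called lower in LM2, KRT8 at 625.7 and 180.2 FPKM. Their part in the histone levels was not tested. The FPKM of all genes summed to 632944 and 598147.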

How the data were processed

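For MDA-MB-231 and LM2-4175, the authors extracted total RNA, made TruSeq libraries, mapped paired reads with TopHat at default settings to hg19, and computed FPKM with Cufflinks. The submitters' notes name TopHat2 and Cuffdiff. The deposited FPKM table gives 1 value per gene and cell line, its lower and upper bounds and a status. What level the bounds have, whether they cover the spread between libraries, and whether counting used strand are not given in the sources used here. The table holds no read counts, the read totals of the libraries were not used here, and precision was read from the bounds. Among tested members, the upper bound lay a median of 56.7% above the FPKM in MDA-MB-231 and 76.0% in LM2.

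Ratios were taken on log2(FPKM + 1), with a pseudocount of 1 FPKM that understates changes of low genes. Fold changes are ratios of FPKM without a pseudocount, and their ranges divide the nearest and the farthest bounds. Values in brackets after an FPKM are its bounds. Named are all called members, the 3 highest of each histone type, the largest increase and decrease of each type among members with a mean of at least 0.5 FPKM, and of each further list the called genes and the largest change. Any other gene was named once its values were known. The members and all lists were chosen with earlier results of these data known, and the groupings by stretch, transcript and shared words were made after the table had been read. Since a 0 may stand for an estimate that failed, such genes are only called listed at 0.

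Positions and sequences were read from GENCODE 44 and GRCh37, the same build as hg19. Of the members, 41 were matched by Ensembl ID, 31 by an older symbol listed in RefSeq, and 4 were not. Python 3.11.15, NumPy 2.4.6, pandas 2.3.3 and Matplotlib 3.10.9 were used, and the call was tested on simulated data. Other pseudocounts, filters, scalings and thresholds were tried.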

Additional observations from a re-analysis of the deposited data

How the results depend on the processing

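No paired analysis was possible because the table holds 1 combined value per gene and cell line, and for the same reason leaving out each replicate was not run. All 10 called histone genes were called as well with a pseudocount of 0.1 FPKM, with no pseudocount, with no filter, with the lines scaled to the same sum, with ratios centred on the median of all genes, and with the bounds alone, and no member was called higher under any setting. A mean of at least 1 FPKM lost HIST1H2AG, a mean of at least 5 FPKM left 4 calls because 4 members were then tested, a fold of 2 lost HIST1H2AG and HIST2H2BE, and the fold alone added HIST1H2AM, HIST1H2BN and HIST1H3B. Of the 22 tested members, 21 were lower when scaled to the same sum and 20 when centred. The members' median log2 ratio was −0.823, −1.678 with a pseudocount of 0.1 FPKM, −1.907 with none, −0.015 unfiltered, −1.132 for members averaging 1 FPKM or more, −2.423 for those averaging 5 FPKM or more, and −1.001 when scaled to the same sum.

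With the fold of 1.5 alone, which 22.1% of all genes passed, 2 replication-independent histone genes (both lower), 1 processing gene (higher), 2 chaperone genes (1 lower, 1 higher) and 5 S phase genes (all lower) were called, and at a fold of 2 with bounds 0 S phase genes were, since UNG was exactly at that fold before the pseudocount. Without its highest member, the log2 ratio of the summed FPKM was −1.085 for H1, −1.417 for H2A, −1.777 for H2B and −0.62 for H4, against −2.738, −2.083, −2.673 and −1.383 with it. Without members that overlap other genes, H2A gave −1.41, H4 −0.62 and HIST2 −1.147, the last against −0.555. The HIST4 ratio turned to 0.03 when scaled to the same sum. Where a cause is not stated here, the cause was not tested. Read totals of the libraries were not used here and no limit from depth was computed for genes listed at 0. For members under 5 FPKM the upper bound in LM2 lay a median of 82.4% above the value.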

Other observations

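Of the 13 names ending in PS that the symbol rule leaves out, 12 were listed at 0 in both cell lines, and HIST2H3PS2 was listed at 0.4 FPKM in MDA-MB-231 and 0 in LM2.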
